A study of Mus musculus with 2 samples.

Results

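The protein part of the cytosolic ribosome is encoded by single-copy genes spread over nearly all chromosomes, and their chromatin was described here in mouse blood monocytes. The genes were chosen by symbol alone: protein-coding genes named Rpl or Rps with a number and an optional a, x or y, together with Rplp0, Rplp1, Rplp2 and Rpsa, without the Rps6k kinases. This gave 76 of 21853 protein-coding genes, of which 46 encode proteins of the large (60S) subunit and 30 proteins of the small (40S) subunit. Open chromatin had been measured by ATAC-seq, in which the Tn5 transposase inserts adapters into DNA that nucleosomes leave free. The data are 1 group of 2 biological replicates of monocytes from peripheral blood of C57BL/6J mice, adults of 5 to 6 weeks, with 50000 cells per library and no control or treated group. The labels give both replicates the same donor identifier, so their spread may be only technical, and with 1 group the design allows no test: all values below are descriptions.

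Ribosomal proteins are needed in near-equal amounts, and their mRNAs are among the most abundant in most cells. Their mRNAs begin with a C and a run of pyrimidines (the terminal oligopyrimidine, or TOP, tract), through which mTOR and Larp1 control their translation. Their promoters lie mostly in CpG islands, usually lack a TATA box, and in mammals often carry sites for ETS family factors such as GABPA, for SP1 and for YY1. Several of the genes also host small nucleolar RNAs (snoRNAs) in their introns, and loss of 1 copy of genes such as Rps19, Rpl5 or Rpl11 causes Diamond-Blackfan anaemia in people.

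Promoter sequences are shown first, as examples of the strings searched for below. The counts below use longer windows around the GENCODE principal start, so a printed RefSeq window and the count can differ. The YY1 and TCTCGCG strings printed for Rps15a and the ETS string of Rps25 are not in the counts. Nor are the pyrimidine runs of Rpl15, Rps6, Rplp2 and Rpl38. Rplp2 is counted with another ETS string, 88 bases before its principal start, and not with the printed one. Rps15a is counted with a pyrimidine run at its principal start, and not with the printed one. Rpl27 and Rps19 are each counted with a pyrimidine run that their printed windows do not mark. The printed sequences are taken from RefSeq on GRCm38.p6, whose promoter table held 56 of the 76 genes, and each runs from 150 bases before to 30 bases from the annotated transcription start site (TSS), which is base 151. Capitals mark CCGGAAG (the ETS family string) or its reverse complement, TCTCGCG (part of a motif attributed to ZBTB33) and AAGATGG (YY1) on either strand, and a C followed by at least 4 pyrimidines that starts within 5 bases of the TSS on the sense strand. The first set holds the genes with the 3 highest promoter folds, Rpl27 at chr11:101442095-101442274 (plus strand), Rpl15 at chr14:18270957-18271136 (minus strand) and Rplp0 at chr5:115559317-115559496 (plus strand).
Rpl27: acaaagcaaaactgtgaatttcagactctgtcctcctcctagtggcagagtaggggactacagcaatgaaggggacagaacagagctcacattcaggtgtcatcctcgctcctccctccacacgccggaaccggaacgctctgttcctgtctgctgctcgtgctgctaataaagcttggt
Rpl15: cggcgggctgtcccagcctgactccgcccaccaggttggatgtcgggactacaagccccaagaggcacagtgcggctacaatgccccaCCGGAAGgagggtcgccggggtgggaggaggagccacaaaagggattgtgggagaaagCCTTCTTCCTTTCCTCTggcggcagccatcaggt
Rplp0: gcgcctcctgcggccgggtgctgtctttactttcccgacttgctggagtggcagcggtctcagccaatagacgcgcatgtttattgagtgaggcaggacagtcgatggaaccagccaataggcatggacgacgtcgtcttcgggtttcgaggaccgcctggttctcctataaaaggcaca

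Rpl15 held 1 ETS string and a long pyrimidine run at its TSS, whereas the windows of Rpl27 and Rplp0 held none of the marked strings. The genes with the lowest folds are shown next, Rpl18 at chr7:45717921-45718100 (plus strand) and Rps15a at chr7:118116118-118116297 (minus strand); Rpl36, which lies between them in rank, is named only. In Rps15a the YY1 string on the antisense strand runs directly into the pyrimidine run at the TSS.
Rpl18: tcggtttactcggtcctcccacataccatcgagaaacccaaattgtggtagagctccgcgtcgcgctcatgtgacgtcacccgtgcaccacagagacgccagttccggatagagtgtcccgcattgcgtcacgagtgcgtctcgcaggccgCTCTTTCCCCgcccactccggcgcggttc
Rps15a: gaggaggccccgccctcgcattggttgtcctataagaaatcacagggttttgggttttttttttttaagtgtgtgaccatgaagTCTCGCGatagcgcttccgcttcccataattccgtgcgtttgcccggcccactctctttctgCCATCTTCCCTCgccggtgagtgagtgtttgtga

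The last set shows carriers of the ETS or TCTCGCG string among the genes taken from a fixed list: Rps6 at chr4:86857338-86857517 (minus strand), Rps19 at chr7:24884526-24884705 (plus strand), Rplp2 at chr7:141447501-141447680 (plus strand), Rps25 at chr9:44407564-44407743 (plus strand), Rpl11 at chr4:136053364-136053543 (minus strand) and Rpl38 at chr11:114668430-114668609 (plus strand). Rps6 carried the ETS string, the palindrome TCTCGCGAGA and a pyrimidine run at the TSS within 1 window, and Rps19 carried TCTCGCG both alone and as the palindrome.
Rps6: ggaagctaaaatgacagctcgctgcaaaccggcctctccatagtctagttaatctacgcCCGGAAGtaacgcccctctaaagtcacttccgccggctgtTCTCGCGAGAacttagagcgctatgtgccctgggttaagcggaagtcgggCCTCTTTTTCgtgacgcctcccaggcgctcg
Rps19: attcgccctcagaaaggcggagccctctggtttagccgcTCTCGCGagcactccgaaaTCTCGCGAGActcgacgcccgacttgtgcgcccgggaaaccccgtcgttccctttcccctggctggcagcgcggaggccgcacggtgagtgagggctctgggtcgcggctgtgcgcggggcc
Rplp2: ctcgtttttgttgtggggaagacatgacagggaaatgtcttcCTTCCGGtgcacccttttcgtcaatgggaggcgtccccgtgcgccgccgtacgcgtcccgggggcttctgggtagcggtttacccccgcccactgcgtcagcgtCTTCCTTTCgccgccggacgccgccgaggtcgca
Rps25: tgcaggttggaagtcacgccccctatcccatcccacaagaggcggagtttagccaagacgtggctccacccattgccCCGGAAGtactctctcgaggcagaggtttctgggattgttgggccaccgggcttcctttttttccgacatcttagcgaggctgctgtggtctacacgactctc
Rpl11: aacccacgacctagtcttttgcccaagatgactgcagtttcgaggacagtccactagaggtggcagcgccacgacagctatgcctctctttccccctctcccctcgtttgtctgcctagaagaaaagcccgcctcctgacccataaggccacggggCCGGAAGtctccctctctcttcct
Rpl38: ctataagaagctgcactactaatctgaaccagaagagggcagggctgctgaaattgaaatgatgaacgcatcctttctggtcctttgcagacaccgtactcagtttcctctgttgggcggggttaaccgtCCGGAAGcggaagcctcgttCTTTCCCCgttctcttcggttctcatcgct

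Every one of the 76 genes had an open promoter. A promoter was counted as open where a merged region of the conservative set, the authors' peaks kept by their reproducibility (IDR) threshold over both replicates, lay within 1 kb of the start of a protein-coding transcript. The count was 76 of 76, beside 46.6% of all protein-coding genes. It was also 76 of 76 in the pseudoreplicated set of replicate 1 (background 50.5%) and in that of replicate 2 (background 51.3%). The open share of all genes differs with the CpG ratio, the observed over expected CpG count within 500 bp of the TSS. Over 5 equal classes of all genes the open share was 9.13%, 20.1%, 51.6%, 73.4% and 78.5% from the lowest to the highest ratio, and 71 of the 76 genes fell in the upper 2 classes (32 and 39). The median CpG ratio was 0.814 for the ribosomal protein genes and 0.565 for all genes. The other 5 were open too: Rpl39, Rps4x, Rpl6 and Rpl23a in the middle class and Rps10 in the second lowest. The CpG ratio of Rps10 was taken around its principal TSS, which its open region did not cover.

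The height of the promoter peaks was above the middle of all open promoters, without reaching the top as a group. Height is the authors' fold enrichment over background, a linear ratio, taken from the highest peak of the region in each replicate's pseudoreplicated set. The mean of the 2 replicates had a median of 8.75 over the 76 genes (quartiles 7.57 and 10.1, range 5.20 to 14.1), beside 7.66 over the 10627 genes open in both replicates (quartiles 5.80 and 9.67). The medians of the 76 were 8.79 in replicate 1 and 8.68 in replicate 2, beside 7.66 and 7.63 for all genes. Of the 76, 74 lay above the lower quartile of all open genes, 56 above the median, 23 above the upper quartile and 7 above the 90% point. The last count is 9.21% of the ribosomal protein genes. In the highest CpG class their median was 9.11 beside 7.69 for all open genes of that class, and in the next class 8.34 beside 8.18.

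**Figure D1:**
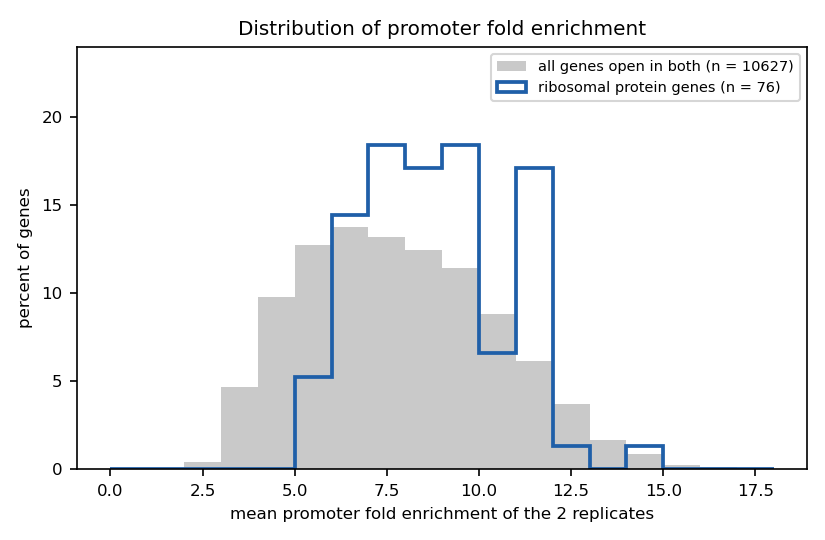
Percent of genes (y axis) by mean promoter fold enrichment of the 2 replicates (x axis, bins of 1), for the 76 ribosomal protein genes (blue line) and all 10627 genes open in both replicates (grey bars). The ribosomal protein genes run from 5.20 to 14.1, with medians of 8.75 and 7.66 for the blue and grey distributions.

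The highest promoter was that of Rpl27, a 60S protein gene on chromosome 11, with a fold of 14.1 in replicate 1 and 14.1 in replicate 2. Its region, chr11:101441992-101442715, was 724 bp wide and its summit lay 9 bp before the TSS of the principal transcript. Rpl15 followed with 12.4 and 13.1, and shares its region with the neighbouring Nkiras1. Rplp0, the protein at the base of the ribosomal stalk, had 12.2 and 11.7. Rps12 had 10.9 and 13.0, and Rps6, the substrate of the S6 kinases, had 12.3 and 11.3. Rpl30 had 12.6 and 10.9. These 6 genes stood above the 92% point of all open genes in mean fold, and their order among themselves was mostly within the spread of the replicates: only Rpl27 was above the other 5 in both.

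At the other end was Rpl18, with folds of 5.49 and 4.90. This value belongs to a region 2711 bp before the principal TSS, which is also within 1 kb of the start of Sphk2; the peak nearest the principal TSS of Rpl18 had 4.45 and 4.79. Rpl36 had 6.37 and 5.16, and Rps15a 6.63 and 5.32. Rpl19 had 5.67 and 6.30, Rpl7 6.11 and 5.91, and Rpl10a 6.31 and 5.93. All 12 values of these 6 genes lay below the all-gene median fold of the same replicate. Their lack of overlap with the values of the 6 highest genes follows from picking both groups by these same folds.

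**Figure D2:**
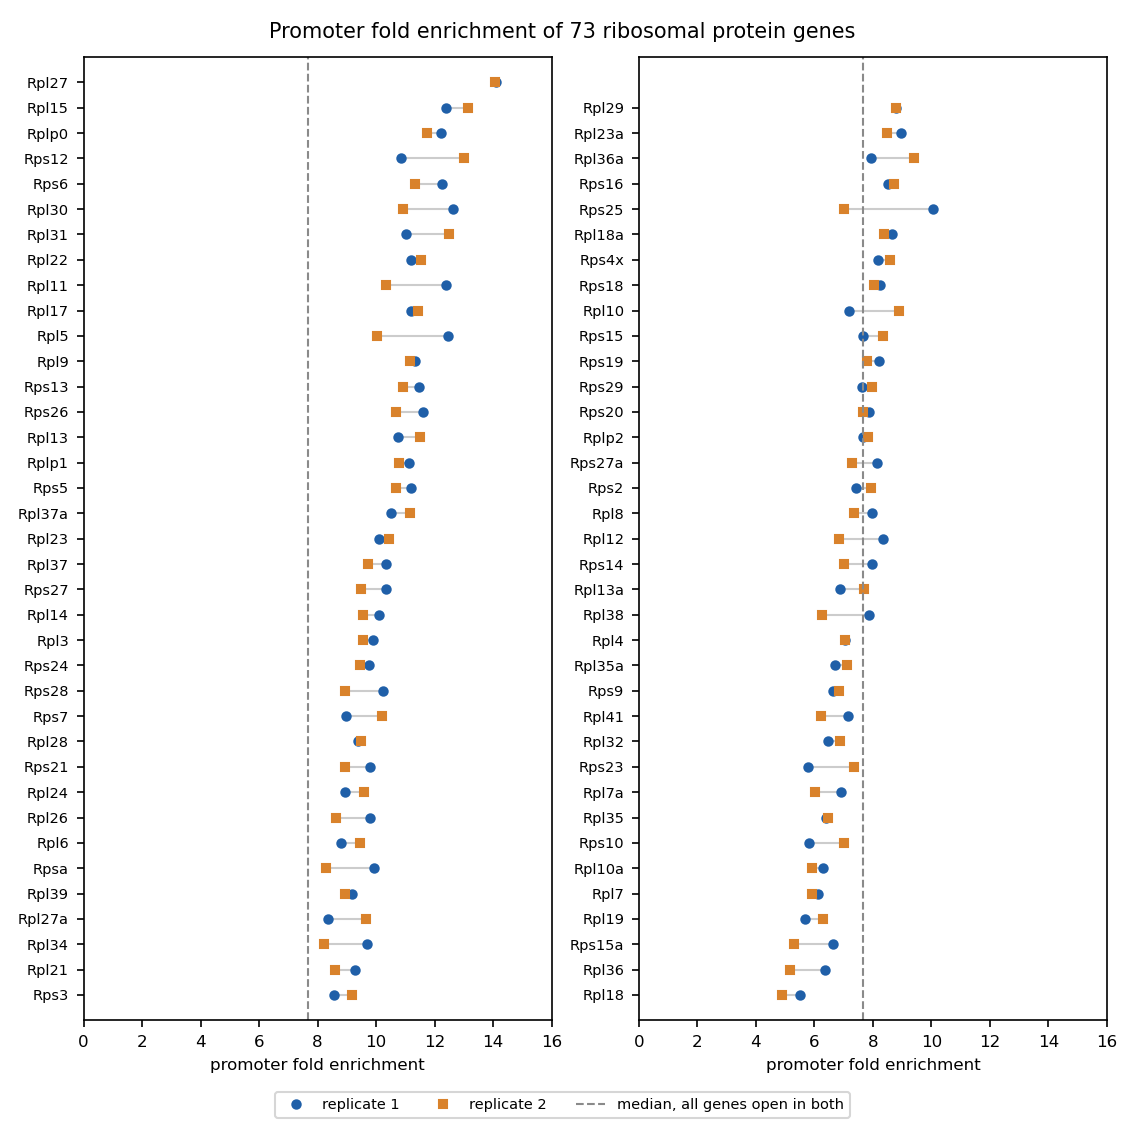
Promoter fold enrichment (x axis) of 73 of the 76 genes (y axis, ordered by the mean of the replicates) in replicate 1 (blue circles) and replicate 2 (orange squares), with the median of the mean fold over all genes open in both (dashed line, 7.66). Rpl27 sits at 14.1 in both replicates, and the widest gap between replicates is that of Rps25.

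The genes described here for their functions in disease or regulation ranked between 8 (Rpl22) and 61 (Rpl4) of the 76 by mean fold. Others with such functions ranked outside this range, such as Rps6 at 5. Rpl5 and Rpl11, which bind Mdm2 together with the 5S rRNA, had folds of 12.5 and 10.02, and of 12.4 and 10.3. Rps19 had 8.20 and 7.79, and Rps14, the gene of the 5q- syndrome, 7.98 and 7.02. Rpl22 had 11.2 and 11.5, Rpl3, at the peptidyl transferase centre, 9.89 and 9.56, and Rpl4 7.05 and 7.04. The Rpl4 value belongs to a region shared with Zwilch, and its peak nearest the principal TSS had 6.70 and 5.55. Rpl38, known for the translation of Hox mRNAs, had 7.87 and 6.25, and Rpl13a, of the interferon-dependent GAIT complex, 6.87 and 7.70. Rps27a, which encodes ubiquitin fused to a ribosomal protein, had 8.15 and 7.29. Rpsa, the laminin receptor homologue, had 9.93 and 8.28. Rpl5, Rpl11, Rpl22, Rpl3, Rps19 and Rpsa lay above the all-gene median in both replicates, Rpl4 below it in both, and Rpl38, Rpl13a, Rps14 and Rps27a on different sides in the 2 replicates.

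The acidic stalk proteins, which recruit the GTPase translation factors, did not have equal promoters. Rplp0 (12.2 and 11.7) and Rplp1 (11.1 and 10.8) were both above Rplp2 (7.67 and 7.85) in each replicate. The summit of Rplp2 lay 212 bp after the principal TSS but 69 bp before the RefSeq start, and its peak nearest the principal TSS had 6.99 and 6.07.

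Large subunit genes had a median mean fold of 8.98 (n = 46 genes) and small subunit genes 8.26 (n = 30 genes), with ranges of 5.20 to 14.1 and 5.98 to 11.9. The medians per replicate were 8.94 and 8.92 for the large and 8.38 and 8.32 for the small subunit. The order of the medians was the same in both, while all small subunit genes lay within the range of the large subunit genes. The 29 genes that hold an annotated snoRNA had a median of 8.87 and the 47 without one 8.66. The order of these medians turned between replicates: hosts had 8.66 and the others 8.94 in replicate 1, and hosts 8.89 and the others 8.59 in replicate 2. The 4 genes on the X chromosome, Rpl10, Rpl36a, Rpl39 and Rps4x, had folds of 7.19 and 8.89, 7.94 and 9.39, 9.17 and 8.95, and 8.16 and 8.59. Their median of 8.52 was close to the 8.83 of the 72 autosomal genes.

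The replicates differed little at these promoters. Subtracting the log2 fold in replicate 1 from that in replicate 2 gave a median of -0.04 over the 76 genes (SD over genes 0.18), beside -0.01 (SD 0.23) for all genes open in both. Of the 76 genes 44 (57.9%) were higher in replicate 1, beside 52.2% of all genes open in both, and 32 in replicate 2. Only Rps25 differed by over 0.5 on the log2 scale, 1.32% of the 76 genes beside 4.03% of all genes. Rps25 had 10.1 in replicate 1 and 7.01 in replicate 2, and its region also serves Trappc4. The summit of the region lay 235 bp after the principal TSS in replicate 1 and 506 bp after it in replicate 2. This summit need not belong to the peak with the highest fold. Rps23 was also among the 4 genes with the largest differences (5.78 and 7.36). Across the 76 genes Pearson's r between the log2 folds in both replicates was 0.853 (0.898 over all 10627), given as a description because promoters of 1 library share its depth and base composition.

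The summits of the ribosomal protein promoters lay within 100 bp of the TSS more often than those of all open promoters. Measured from the start of the principal transcript, the median summit was 30 bp upstream (quartiles -79 and 0.25 bp), beside 51 bp upstream for all 10174 open promoters (quartiles -132 and 7 bp). The summit was within 100 bp of the TSS at 57 of the 76 genes (75%) and at 53.2% of all open promoters, and within 50 bp at 34 genes (44.7%, beside 32.2%). The region covered the principal TSS at 71 genes (93.4%, beside 79.5%). The 5 exceptions were Rpl18, Rps10, Rpl35, Rpl4 and Rps19.

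**Figure D3:**
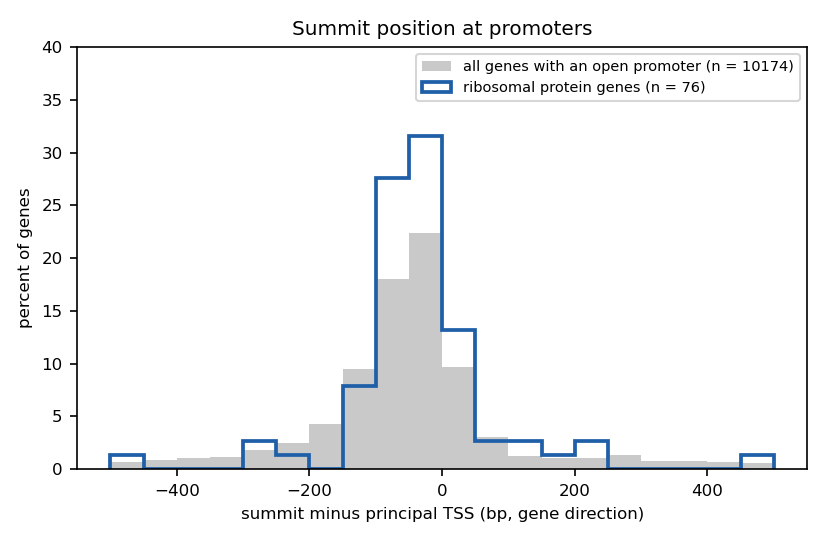
Percent of genes (y axis) by the distance of the summit from the principal TSS (x axis, bp in the direction of the gene, bins of 50), for the 76 ribosomal protein genes (blue line) and all 10174 genes with an open promoter (grey bars); summits over 500 bp away are not drawn. The blue line is highest just before the TSS, and 57 of the 76 genes lie within 100 bp.

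Some of the distant summits were close to another annotated start. For Rps10 the summit lay 1366 bp after the principal TSS, in a region that also lies near the start of the annotated readthrough gene RPS10-NUDT3, and 59 bp before the RefSeq start. For Rpl35 the summit was 452 bp after the principal TSS and 41 bp before the RefSeq start. For Rps15a the summit was 582 bp before the principal TSS and 112 bp before the RefSeq start, and for Rps23 these distances were 177 bp and 13 bp after. The summit of Rpl4 lay 464 bp before the principal TSS, in a region that also serves Zwilch, and that of Rps19 269 bp before it. A separate Rpl4 region had a summit 28 bp after the principal TSS. Over the 56 genes with a RefSeq start, the median summit was at -56 bp from that start, the same as over the 8098 open genes with one (-56 bp), and at -24 bp from the principal TSS (-52 bp over those 8098). The offset of the medians is therefore seen with the principal starts only. The share within 100 bp stayed higher with both: 44 of 56 (78.6%, beside 55.6%) from the RefSeq start and 41 (73.2%, beside 53.5%) from the principal TSS.

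Regions were of ordinary width. The median was 725 bp over the 76 genes (quartiles 584.75 and 890 bp) and 680 bp over all open promoters (499 and 895 bp). The widest were those of Rps29 (1385 bp, merged from 5 peaks), Rpl34 (1294 bp, 4 peaks) and Rps25 (1181 bp, 3 peaks). The narrowest were those of Rpl36 (272 bp), Rpl38 (373 bp) and Rpl35 (375 bp), each of 1 peak. A region wider than 1 kb was found at 12 genes (15.8%, beside 16.2% of all open promoters). The region was within 1 kb of another protein-coding gene's start at 14 genes (18.4%, beside 22.9%); these partners were Nkiras1, Lias, Rab13, Ndufa7, Trappc4, Vps52, Clhc1, Lrsam1, Zwilch, Iqcg, Med22, RPS10-NUDT3, Rdh10 and Sphk2. The 14 genes with a shared region had a median mean fold of 7.66 and the other 62 genes 8.95, and in a shared region the peak cannot be assigned to 1 of the genes.

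The promoters shared certain short strings more often than other open promoters did. Strings were searched on both strands from 250 bases before to 50 bases after the principal TSS, and a match is only a match of letters. The ETS string CCGGAAG was in 25 of 76 promoters (32.9%), beside 20.4% of all open promoters and 11.2% of all promoters. TCTCGCG was in 15 (19.7%), beside 5.74% of open and 3.40% of all promoters. Its palindromic form TCTCGCGAGA, which was added after the matches had been seen and which holds TCTCGCG on both strands, was in 8 (10.5%), beside 1.08% and 0.595%. Among open promoters of the upper 2 CpG classes the shares were 23.7% for the ETS string, 7.83% for TCTCGCG and 1.48% for the palindrome. A C with at least 4 pyrimidines starting within 5 bases of the TSS, the form of a TOP tract, was present at 28 genes (36.8%), beside 18.4% of open and 17.6% of all promoters. From the RefSeq starts it was 25 of 56 (44.6%), beside 19.8% of open promoters. Both shares depend on the annotated start, since a run that begins over 5 bases from it is not counted. The printed window of Rps25 holds such an unmarked run before its start. The shares are therefore not those of genes whose mRNAs have a TOP tract.

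**Figure D4:**
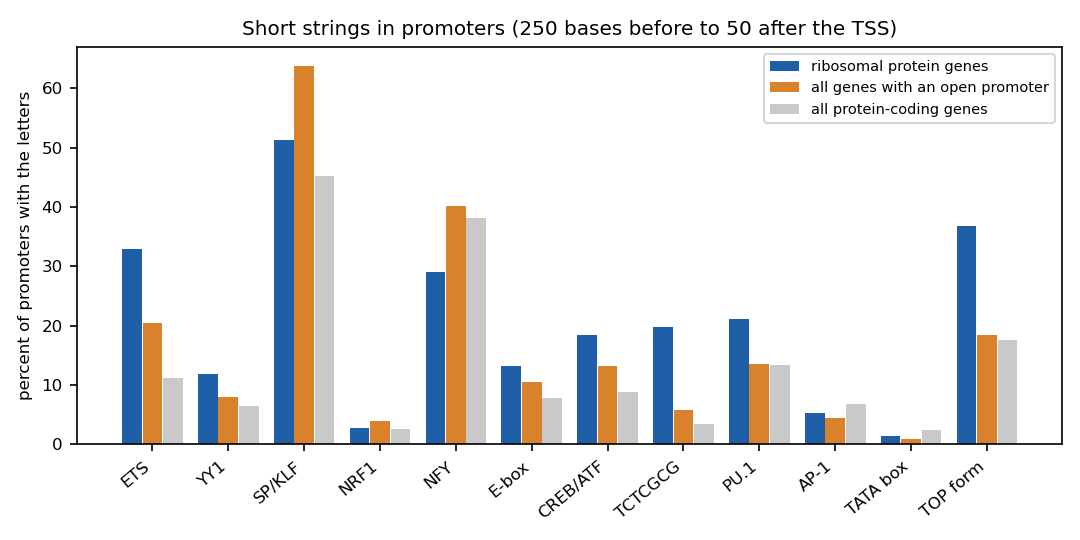
Percent of promoters that hold each string (y axis, from 0) for the 76 ribosomal protein genes (blue), all 10174 genes with an open promoter (orange) and all 21853 protein-coding genes (grey); TOP form is a C and at least 4 pyrimidines at the TSS. Blue bars exceed orange bars most for TCTCGCG (19.7% beside 5.74%) and for the TOP form (36.8% beside 18.4%), and are lower for SP/KLF, NFY and NRF1. The order for NRF1 turned around the summit and with RefSeq starts.

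Other strings were also counted. AAGATGG (YY1) was in 9 promoters (11.8%, beside 8.01% of open promoters), TGACGT (CREB and ATF) in 14 (18.4%, beside 13.2%), CACGTG (E-box, the string of MYC and MAX) in 10 (13.2%, beside 10.5%) and GAGGAAG (PU.1, the myeloid ETS factor) in 16 (21.1%, beside 13.5%). In open promoters of the upper 2 CpG classes these shares were 8.61% for YY1, 15.8% for CREB and ATF, 11.7% for the E-box and 11.7% for PU.1. The E-box share was below that of open promoters around the summit (7.89% beside 9.03%) and with RefSeq starts (8.93% beside 10.9%). GGGCGG (SP and KLF family) was in 39 (51.3%), less often than in open promoters (63.8%) and in those of the upper 2 CpG classes (73.5%). CCAAT (NFY) was in 22 (28.9%, beside 40.2%). GCGCATGCG (NRF1) was in 2 (2.63%, beside 3.90%), TGANTCA (AP-1) in 4 (5.26%, beside 4.48%), and TATAAA between 40 and 20 bases before the TSS in 1, Rps2 (1.32%, beside 0.855%). These orders turned with the window. The NRF1 share was 3.95% beside 3.09% around the summit and 5.36% beside 4.31% with RefSeq starts. For AP-1 these values were 2.63% beside 3.14%, and 3.57% beside 4.32%. With RefSeq starts the TATAAA share was 0% beside 0.951%, and this count depends on the annotated start. The ETS and PU.1 strings share the letters GGAAG and differ in the bases before them.

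Positions were counted over matches, in which a palindromic site counts on both strands. The 32 ETS matches had a median start 25.5 bases before the TSS, beside 33 in all open promoters, with 16 in the last 100 bases (52.0% of matches in open promoters) and 10 after the TSS. The 25 TCTCGCG matches had a median start 34 bases before it, beside 53, with 18 in the last 100 bases (52.3% in open promoters). The E-box and AP-1 matches lay farther off, with medians of 108.5 and 213.5 bases before it. Of the 9 YY1 matches 5 began after the TSS, and their median start was base 17 after it, beside 56.5 bases before it for all open promoters. Rps14 carried 2 palindromic ETS sites, each matched on both strands, and Rpl15, Rpl37, Rps18 and Rps21 carried 2 separate sites each. The TCTCGCG carriers with the palindrome included Rpl10a, Rpl17, Rpl26, Rpl4, Rps19, Rps28 and Rps6. The 25 genes with an ETS string had a median mean fold of 9.13 (range 6.24 to 12.8) and the 51 without it 8.53 (5.20 to 14.1). For TCTCGCG the medians were 8.71 with it and 8.78 without it.

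Open regions away from promoters were assigned to a share of the ribosomal protein genes near that of all genes. A distal region lies over 1 kb from every protein-coding TSS and was given to the gene of the nearest TSS within 100 kb, which says nothing of the gene it acts on. At least 1 distal region was assigned to 26 of the 76 genes (34.2%), beside 33.6% of all genes. In replicate 1 it was 33 genes (43.4%, background 41.7%), and in replicate 2 also 33 (43.4%, background 41.5%). The 26 genes had 45 regions, a mean of 0.592 per gene beside 0.745 for all genes. Neighbouring genes are close: the stretch nearest to the gene and within 100 kb was 15.5 kb at the median, beside 43.6 kb for all genes. Per 100 kb of that stretch there were 1.78 regions, beside 1.06 for all genes, whether their promoters were open or not. Of the 76 genes 38 fell in the shortest of 5 equal classes of stretch, up to 15.5 kb, and 3 of these 38 had a distal region, beside 15.1% of all genes in it. In the next class 11 of 14 had one (28.5% of all genes), then 3 of 9 (38.6%), 8 of 14 (44.0%) and 1 of 1 (41.8%), so the members lay above the background in some classes and below it in others.

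**Figure D5:**
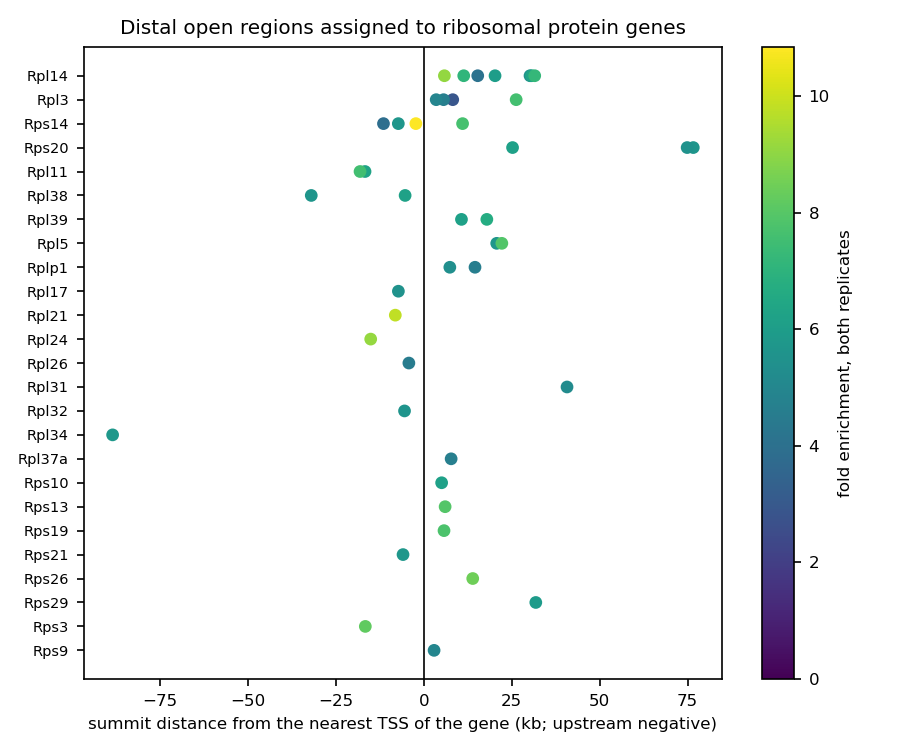
Summit distance of 44 of the 45 distal regions from the nearest TSS of the gene (x axis, kb, upstream negative) for 25 ribosomal protein genes (y axis, most regions on top), coloured by fold enrichment in the conservative set. Rpl14 has 7 regions, all downstream, and 29 of the 44 regions drawn are downstream. The downstream share of all assigned distal regions is not given.

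Rpl14 had the most distal regions, 7, all downstream and intergenic, between 5.64 and 31.2 kb from its TSS. The nearest of them, chr9:120577085-120577787, had folds of 8.88 and 8.28 in the replicates, and the lowest 4.06 and 3.83. The next gene by TSS distance was Entpd3, between 37.3 and 62.8 kb away. Rpl3 had 4, downstream, of which 3 were in regions of both replicates; the farthest, chr15:80054069-80054639, had folds of 6.88 and 6.35, and Syngr1 was the next gene. Rps14 had 4, with 1 in an intron of Ndst1, 2 in its own annotated introns and 1 downstream towards Cd74, the invariant chain of antigen presentation. The one in Ndst1 had the highest fold of all 45, 10.8 and 9.74. Rps20 had 3, all in introns of Lyn, a Src family kinase of myeloid cells, 25.1 to 76.4 kb from the Rps20 TSS. The nearest of these 3 was in a region of replicate 2 only.

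Rpl11, Rpl38, Rpl39, Rpl5 and Rplp1 had 2 each. The farther Rplp1 region was in a region of neither replicate. Those of Rpl11 lay 16.6 and 17.8 kb upstream with folds of 6.31 and 5.37, and of 7.05 and 6.997. Those of Rpl5 lay in introns of Fam69a, and only the stronger, with folds of 7.12 and 7.39, was in both replicates. The distal region of Rps19, with folds of 6.94 and 7.53, was 5.53 kb from its TSS and 6.40 kb from that of Cd79a, a B cell gene. Of the 45 regions 34 were intergenic, 10 intronic and 1 exonic. In the replicates, 38 were in a region of replicate 1, 43 in one of replicate 2 and 38 in both. These shares are not given for all assigned distal regions, so the counts describe the 45 only. The median fold of the 45 in the conservative set was 5.99, beside 6.03 for all 16278 assigned distal regions.

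Genes that work with these were open as well. Of the ribosomal proteins outside the symbol rule 8 of 12 had an open promoter, among them Rack1 (folds 6.94 and 6.49), the scaffold of the 40S head, and Rps27l (11.6 and 13.7). The 4 without one were Rpl3l, Rpl10l, Rpl39l and Rps27rt, paralogues or retrocopies of which the first 3 are known from muscle or testis. All 15 translation factors and other genes with TOP mRNAs were open (median mean fold 7.73), with Pabpc1 and Tpt1 at 4 distal regions each, as Nap1l1. All 20 ribosome biogenesis genes (9.55) and all 10 genes of RNA polymerase I transcription (9.39) were open. Ncl had 3 distal regions, Nhp2 and Rrp1 had 2 each, Polr1a 6 and Taf1b 3. Of 13 regulators 12 were open (8.14): Myc had no open promoter but 3 distal regions, and Yy1 and Rptor had 5 each. Of the 78 mitochondrial ribosomal protein genes 75 were open, with a median of 8.35, and Mrpl33, Mrpl1, Mrps23 and Mrpl45 had 3 distal regions each. The 3 not open, Mrps25, Mrps34 and Mrpl14, had a promoter region in replicate 1, with folds of 4.11, 4.03 and 3.55, and the last 2 also in replicate 2, with 2.92 and 4.13.

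The labelled cell type was checked on its markers. Of 14 monocyte markers 13 had an open promoter, and Ccr2, the other one, had 3 distal regions, while Cebpb had 15 and Klf4 had 8. Fcgr1, among the 13, had a promoter region in the set of replicate 1 (fold 6.18) but not in that of replicate 2. Of the markers of other blood cells, 1 of 6 each was open for T cells (Cd3d), B cells (Pax5), NK cells (Prf1) and erythroid cells (Klf1), and 0 of 6 for neutrophils and platelets. Cd3d had folds of 11.7 and 11.2, above every monocyte marker, while Klf1 had no promoter region in either replicate's set. At least 1 distal region was assigned to 11 of 14 monocyte markers, beside 33.6% of all genes. For neutrophils it was 4 of 6, for B cells and NK cells 3 of 6 each. For T cells and platelets it was 2 of 6 each, and for erythroid cells 0 of 6. The NK marker Klrb1c had 7 distal regions. The looser pseudoreplicated sets of both replicates also had a promoter region at Ncr1, Ebf1, S100a8 and Itga2b, markers of NK cells, B cells, neutrophils and platelets. The part of other cells in the values of the ribosomal protein genes was not tested. Open promoters are not expression, and the depth of the libraries is unknown, because no read counts were used here. The conservative set held 39944 peaks merged into 28438 regions.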

How the data were processed

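ATAC-seq peak lists of both monocyte replicates were used, on mm10 per the labels. No source used here names the aligner, the caller of the peaks or the treatment of Tn5 offsets. The fold enrichment (a linear ratio) and the −log10 p of each peak are the authors' deposited values, and the deposited score is the authors' IDR score. They were not rescaled, and their background is not stated. Depth is unknown, so no counting interval is given.

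Peaks on chromosomes 1 to 19, X and Y that overlapped were merged; a region took its largest fold, and its summit from the peak with the largest −log10 p. Gene models were GENCODE M21 and sequence GRCm38.p6, of the same build as mm10. The principal transcript was the APPRIS principal one. CpG ratios used 500 bp each side of the TSS. Merging and assignment were tested on simulated peaks. Python 3.11.15, numpy 2.4.6, pandas 2.3.3, matplotlib 3.10.9, pysam 0.24.0 and samtools 1.23.1 were used.

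The members, lists and strings were chosen with earlier results of these data known. Genes named were the 6 highest and 6 lowest by mean fold, those with most distal regions (top 8, ties included), the 4 with the largest replicate difference, the 3 widest and 3 narrowest regions and 18 fixed genes; of the lists of ribosome-related genes, those without an open promoter and the 2 with most distal regions. Alternatives were other peak sets, windows, starts, overlaps and each replicate alone. Of 13 ribosomal proteins listed outside the symbol rule, 1 was not matched and was left out. A few members are counted in all totals but are not reported here by name or drawn by name.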

Additional observations from a re-analysis of the deposited data

How the results depend on the processing

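Of 63 alternative values 51 stayed close to the reported ones and 12 moved. Counts and shares were called close within a factor of 1.5, a wide margin. Medians were called close if they moved by less than the median SD of the 2 replicates. For the difference between replicates the SD over genes was used instead. An open promoter was found for 76 genes in each peak set and window, and for 75 with the principal transcript only, where Rps10 was missed. The 45 distal regions became 83 in the replicated and 84 in the pseudoreplicated set of the series, 20 and 23 in the thresholded sets of 1 replicate alone, and 62 and 66 in their pseudoreplicated sets. The median fold was 9.31 in the conservative set, and between 8.68 and 8.79 with 1 replicate. The median width was 590.5 to 627.5 bp in the sets of 1 replicate. The median summit distance was -56 bp from RefSeq starts, an alternative chosen after seeing the data, beside -30 bp. The NRF1 share was 5.36% with RefSeq starts, above the 4.31% of open promoters. The E-box share was 7.89%, below the 9.03% of open promoters, and the AP-1 share 2.63% around the summit, and the TATA box share was 0% with RefSeq starts. At these low shares 1 or 2 genes make the difference for AP-1, NRF1 and the TATA box. The replicates' promoter regions overlapped by at least 50% of both at 72 genes. Depth is unknown, so a region missing from 1 replicate may be too weak to be listed. No paired analysis was possible because there is only 1 group.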
